A study of Mus musculus with 2 samples.

Results

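The genes described here are Wdfy1, Ide, Gm17167, AY036118 and Zfp865, 5 of the 32285 genes counted in 2 single-cell RNA libraries of mouse liver. They were selected by name because their level differed between the 2 libraries, so that difference is given as a description, with no test. The question is whether the difference has the same size in every type of cell. The libraries came from non-parenchymal cells, the cells of the liver other than hepatocytes, released with collagenase from male mice 5 months old on standard chow. One library is labelled Hep-ADKTg, from mice in which the albumin promoter drives extra adenosine kinase in hepatocytes, and the other is labelled Hep-ADKWT, from mice named as their controls. There was 1 library per genotype, and the strain of the mice is not in the labels, so genotype, animal and library preparation cannot be told apart. They are called the Tg-labelled and the WT-labelled library below.

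Wdfy1 encodes an adaptor with a FYVE domain, which binds phosphatidylinositol 3-phosphate on early endosomes, and with WD repeats; it is known to help Toll-like receptors 3 and 4 recruit the adaptor TRIF (gene Ticam1). Ide encodes insulin-degrading enzyme, a zinc metalloprotease that cleaves insulin and other short peptides and is abundant in hepatocytes, where much insulin is cleared. Gm17167 is a predicted gene with a non-coding transcript in a region of chromosome 4 that holds many near-identical copies. AY036118 is a non-coding transcript annotated inside a ribosomal RNA gene model on chromosome 17, and Zfp865 encodes a zinc finger protein. Positions are on GRCm38 from the GENCODE M21 annotation, which held 32158 of the 32285 gene identifiers. Wdfy1 (ENSMUSG00000073643) lies at chr1:79702262-79776143 on the minus strand, Ide (ENSMUSG00000056999) at chr19:37268743-37337852 on the minus strand and Zfp865 (ENSMUSG00000074405) at chr7:5020376-5036768 on the plus strand. Gm17167 (ENSMUSG00000091542) lies at chr4:42206998-42235313 on the plus strand and AY036118 (ENSMUSG00000105361) at chr17:39847113-39848035 on the minus strand.

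The WT-labelled library held 15663 cell barcodes with 97135016 unique molecular identifiers (UMIs, each counting 1 captured RNA molecule), and the Tg-labelled library 17462 barcodes with 96481752 UMIs. Filters kept 12478 and 14445 cells (median depth 4807 and 2783 UMIs), and 88 barcode sequences occurred in both libraries. The cells were clustered and 12 cell classes, named from marker genes, had at least 50 cells in each library; together they held 12007 and 10571 cells. Clusters of 1 class often split by library: most B cells came from cluster 3 in the WT-labelled and from cluster 5 in the Tg-labelled library, and most sinusoidal endothelial cells from clusters 7 and 19 against cluster 4. The lymphocytes likewise came mainly from clusters 6, 8, 14, 16 and 20 against clusters 2 and 10. Despite the non-parenchymal label, cells with hepatocyte markers made up 1437 and 3517 of the kept cells. Adk, the overexpressed gene, stood at 709 CPM (counts-per-million, the gene's UMIs as a share of the class's UMIs) in hepatocyte-like cells of the WT-labelled library. In those of the Tg-labelled library it stood at 570, a log2 ratio of -0.32 (-0.36 to -0.27). In lymphocytes Adk went from 21.3 to 73.4 CPM, a log2 ratio of 1.78. Hepatocyte RNA was estimated at 2.62% of lymphocyte UMIs in the WT-labelled and 12.8% in the Tg-labelled library. Its part in the lymphocyte Adk ratio was not tested. Hepatocyte Adk thus went against the label; no source used here says whether transgene transcripts are counted under Adk. Directions below are therefore between libraries as labelled.

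Levels are in CPM, from UMIs summed over the cells of a class. No p-value is given, because 1 library per genotype leaves no replicate against which to set a difference. A ratio is the Tg-labelled over the WT-labelled level, and each interval after a value is a 95% interval that covers counting error only. The class-stratified ratio combines the classes in which a gene had at least 50 UMIs over both libraries, weighting each class by its UMIs (Mantel-Haenszel). Over the 6240 genes with that many UMIs in at least 8 classes, 36 genes (0.577%) had a stratified ratio at least 2-fold higher in the Tg-labelled library and 4 genes (0.0641%) one at least 2-fold lower. Wdfy1 was among the 36 and Ide among the 4, which follows from how they were chosen. At least 2-fold higher in every class tested were 7 genes (0.112%), with Mup11, Mup17, Mup14, Mup1 and Saa1 furthest from 2-fold, and at least 2-fold lower in every class 1 gene (0.016%), the antibody gene Igha. None of the 5 genes described here was among those 8. Gm17167, tested in 3 classes, was not among the 6240 genes and so could not be counted. The median stratified log2 ratio over 6226 genes with UMIs of both libraries in each class was -0.13, with 17.6% of genes above 0. Size factors from TMM or DESeq2 moved that median up by 0.13 and the share above 0 to 50.3% and 51.0%, so the side of 0 on which a gene with a small ratio lies depends on the scaling.

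**Figure D1:**
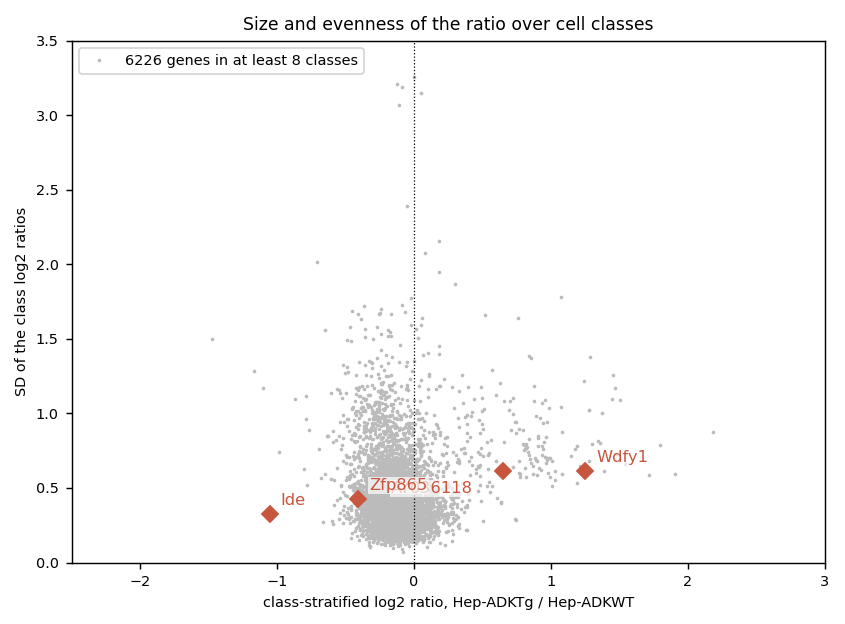
Class-stratified log2 ratio (x axis) against the SD of a gene's log2 ratios over cell classes (y axis) for 6226 genes (grey), with 4 of the genes described here as red diamonds; Gm17167 was tested in 3 classes and is not drawn. Ide lies at -1.05 with an SD of 0.32, below the SDs of Wdfy1 (0.61) and AY036118 (0.61), and Zfp865 lies at -0.40, where 97.2% of genes have a higher ratio.

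Of the 36 genes at least 2-fold higher, 30 had their highest mean level over both libraries in hepatocyte-like cells, such as Mup17, Fga and Apob, which encode secreted hepatocyte proteins. Wdfy1 was one of the 6 that did not, with Ighm, Lrg1, Gsn, Lcn2 and Gm43305 (these genes were named after their values were seen). Its ratio was higher in all 9 classes tested, as was that of Gm43305 in 9 and of Lrg1 in 12, whereas Gsn was higher in 5 classes and lower in 5 and Ighm was higher in 1 and lower in 11. Among the 4 genes at least 2-fold lower, the SD over classes was 0.32 for Ide, 1.17 for Gsta3, 1.28 for Rgn and 1.5 for Igha. Ide was lower in all 10 classes tested and Igha in all 12. Gsta3 was higher in 11 classes and lower in 1, and Rgn was higher in 10 and lower in 1. That 1 class was the hepatocyte-like cells, where Gsta3 went from 1585 to 517 CPM and Rgn from 1216 to 348.

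Wdfy1 was higher in the Tg-labelled library in each class tested, by 1.53-fold in plasma cells to 5.40-fold in fibroblast or mesothelial cells. In T, NK and innate lymphoid lymphocytes it stood at 18.1 CPM (16.5 to 19.7) in the WT-labelled library and at 36.4 (33.1 to 40.0) in the Tg-labelled one. In sinusoidal endothelial cells, which line the liver's capillaries, the values were 16.8 (13.88 to 20.05) and 41.2 (36.2 to 46.7). In hepatocyte-like cells Wdfy1 had 31 UMIs, 4.98 CPM (3.39 to 7.07), in the WT-labelled library and 814 UMIs, 21.6 CPM (20.2 to 23.2), in the other. None of these 3 pairs of intervals overlapped. The stratified ratio was 2.38-fold (2.18 to 2.60), a log2 ratio of 1.25, with 8 of the 9 class intervals above 0. Lymphocytes of at least 1000 UMIs were also thinned to 1000, which left out 102 and 150 shallower cells. Of the thinned cells, 2.10% (1.70 to 2.56, exact binomial) and 3.28% (2.63 to 4.05) held a Wdfy1 UMI, against 9.48% and 13.7% of all lymphocytes unthinned.

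The size of the Wdfy1 difference was not the same in every class. The class log2 ratios ran from 0.62 (-0.33 to 1.46) in plasma cells, with only 14 UMIs in the Tg-labelled library, to 2.43 (1.51 to 3.44) in fibroblast or mesothelial cells. Hepatocyte-like cells stood at 2.12 (1.60 to 2.69) and monocytes or macrophages at 1.73 (1.27 to 2.20), above the B cells at 0.89 (0.56 to 1.22) and the lymphocytes at 1.01 (0.83 to 1.20). In 5 of the 9 classes the interval left out the stratified value. The SD over classes was 0.61, against 0.33 from counting alone, and 83.9% of the 6226 genes had a smaller SD. In single clusters with at least 50 cells of each library, Wdfy1 was higher in 11 of 11, from a log2 ratio of 0.46 in lymphocyte cluster 10 to 3.40 in hepatocyte cluster 0, where its level went from 3.76 to 39.8 CPM. In the deep hepatocyte cluster 9 the log2 ratio was 1.78 (1.07 to 2.60). Clusters found mostly in 1 library are not among the 11, such as B cell cluster 3 (1892 and 12 cells) and sinusoidal endothelial cluster 7 (1124 and 42 cells).

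**Figure D2:**
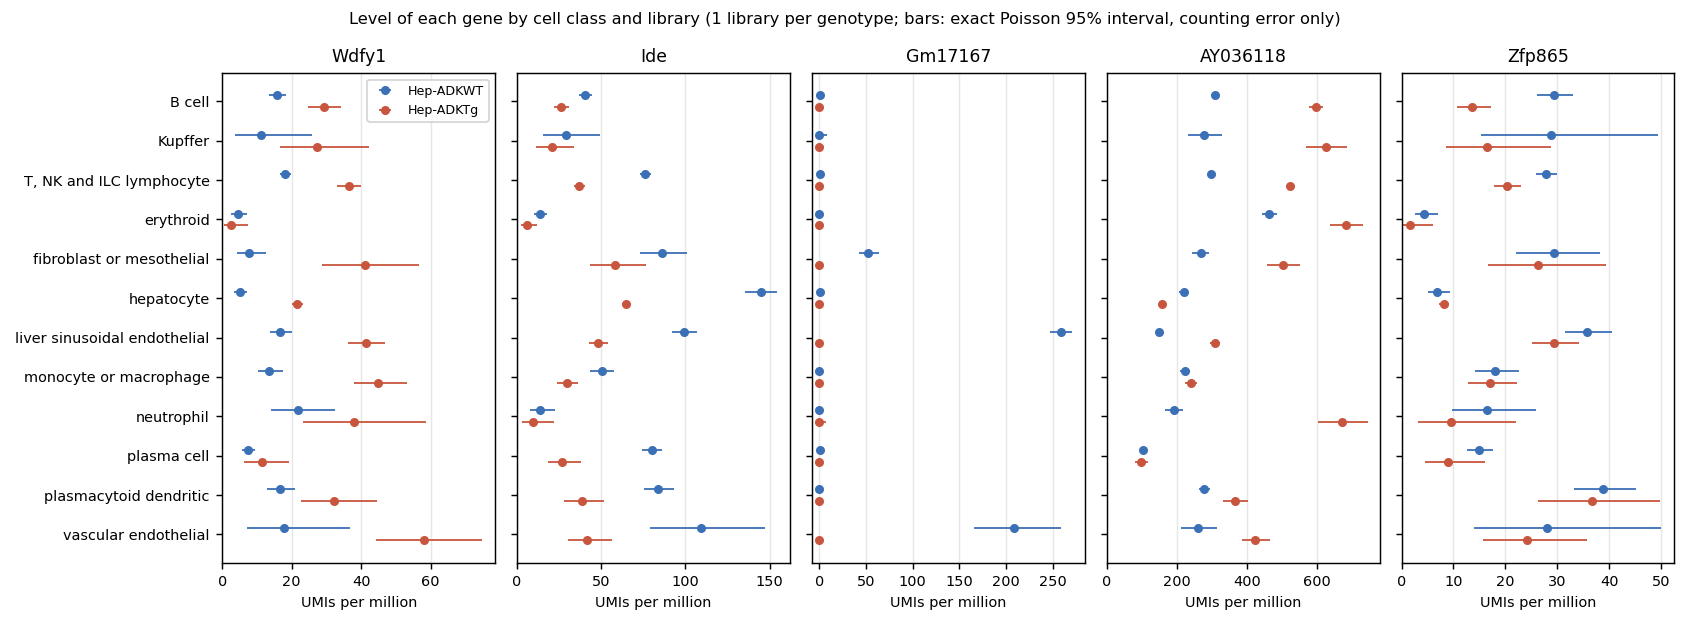
Level of the 5 genes in CPM (x axes, a separate scale for each gene) in 12 cell classes (y axis), for the WT-labelled (blue) and the Tg-labelled library (red); bars are exact Poisson 95% intervals. Wdfy1 is to the right in red in 11 of 12 classes, Ide to the left in red in every class, and Gm17167 is at 0 in every class of the Tg-labelled library.

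The order of the classes by Wdfy1 level differed between the libraries. In the WT-labelled library the highest level was 21.9 (14.0 to 32.5) in neutrophils, whose interval overlapped those of 7 other classes, and the lowest were hepatocyte-like cells and erythroid cells at 4.4 (2.56 to 7.04), whose intervals overlapped. In the Tg-labelled library the highest level was 58.1 (44.4 to 74.8) in vascular endothelial cells, whose interval overlapped those of neutrophils, monocytes or macrophages, fibroblast or mesothelial, sinusoidal endothelial and plasmacytoid dendritic cells. Erythroid cells, under 50 UMIs and so not tested, were the exception to the direction, with 17 UMIs against 3. Hepatocyte RNA that reaches other droplets would add 3.20% to 11.2% of the Wdfy1 level in the 8 other classes tested of the Tg-labelled library and 0.533% to 1.15% in those of the WT-labelled one. Erythroid cells, Kupffer cells and neutrophils, under 50 UMIs, are not in these ranges.

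Ide was lower in the Tg-labelled library in each of the 10 classes tested, and all 10 intervals lay below 0. In lymphocytes it stood at 76.2 CPM (73.0 to 79.5) in the WT-labelled library and at 36.9 (33.5 to 40.4) in the Tg-labelled one. In hepatocyte-like cells, where it was highest in both libraries, the values were 145 (135 to 154) and 64.8 (62.3 to 67.5). In sinusoidal endothelial cells they were 99.0 (91.8 to 107) and 48.3 (42.9 to 54.3), so none of these 3 pairs of intervals overlapped. Within a library the top rank of hepatocyte-like cells was not clear of counting error. Their interval overlapped that of vascular endothelial cells in the WT-labelled library, 109 (79.1 to 147). In the Tg-labelled library it overlapped that of fibroblast or mesothelial cells, 58.0 (43.2 to 76.3). The stratified level was 2.07-fold lower (1.97 to 2.18), a log2 ratio of -1.05. Of the lymphocytes with at least 1000 UMIs, thinned to 1000, 7.02% (6.29 to 7.81) and 3.48% (2.80 to 4.26) held an Ide UMI. Over all lymphocytes unthinned the shares were 33.4% and 14.8%.

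The class ratios of Ide lay close together. They ran from -1.57 (-2.12 to -1.07) in plasma cells to -0.57 (-1.05 to -0.11) in fibroblast or mesothelial cells, and the intervals of hepatocyte-like cells (-1.16), lymphocytes (-1.05) and sinusoidal endothelial cells (-1.03) overlapped. The intervals of 2 classes left out the stratified value: B cells at -0.62 (-0.91 to -0.34) lay above it and the plasma cells below. The SD over classes was 0.32, against 0.26 from counting alone, and 34.8% of the 6226 genes had a smaller SD. Ide was lower in 14 of 14 single clusters with at least 50 cells of each library, with 13 intervals below 0. They ran from -1.57 in plasma cell cluster 21 to -0.43 in fibroblast or mesothelial cluster 26. Clusters found mostly in 1 library, such as lymphocyte cluster 6 (1347 and 13 cells), are not among them. With size factors from TMM or DESeq2 the Ide ratio was -0.89, short of 2-fold. The highest Ide value was in hepatocyte-like cells. Hepatocyte RNA in other droplets would account for 7.96% to 100% of the Ide level in the 9 other classes tested of the Tg-labelled library. The value of 100% was in erythroid cells with 7 UMIs. In those classes of the WT-labelled library it would account for 1.65% to 24.1%. Kupffer cells and neutrophils (under 50 UMIs) are not included. With the hepatocyte profile subtracted the Ide ratio was -1.14.

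**Figure D3:**
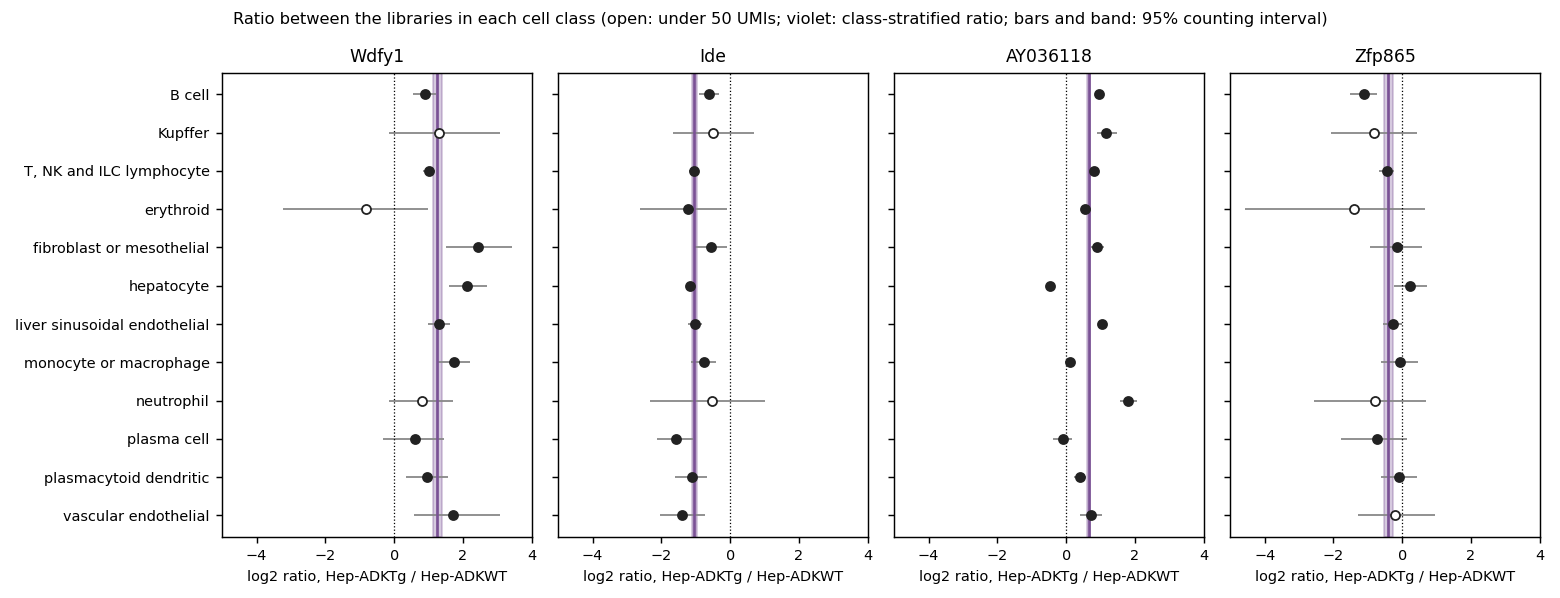
Log2 ratio of the Tg-labelled over the WT-labelled library (x axis) in 12 cell classes (y axis) for 4 genes; bars are 95% counting intervals, open points have under 50 UMIs, and the violet line and band mark the class-stratified ratio. The tested Ide classes lie between -1.57 and -0.57, whereas AY036118 runs from -0.46 to 1.81.

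The genes beside Ide were not all lower by the same amount. Of the 10 neighbours (5 on each side), 7 had enough UMIs, and all 7 had a stratified log2 ratio below 0, or 5 of the 7 with TMM or DESeq2 factors, in a data set whose median gene stood at -0.13. Among them 3 were close to that median: March5, encoding a mitochondrial ubiquitin ligase, at -0.08 (-0.15 to 0.00), Cpeb3, a regulator of translation, at -0.07 (-0.31 to 0.17) and Hhex, a homeobox factor of liver development, at -0.15 (-0.23 to -0.08). The lowest coordinate of Fgfbp3 lies 351 kb from that of Ide. Fgfbp3, which encodes a secreted carrier of fibroblast growth factors, stood at -1.43 (-1.86 to -1.0). It went from 15.8 to 7.60 CPM in sinusoidal endothelial cells and from 4.69 to 1.08 in lymphocytes. Btaf1, next to Fgfbp3 and encoding a remover of TATA-binding protein from DNA, was lower in all 9 classes tested, with a stratified ratio of -0.59 (-0.71 to -0.48) and class ratios from -1.22 in plasmacytoid dendritic cells to -0.30 in monocytes or macrophages. The cell-division kinesin Kif11 was tested only in plasma cells, at -2.28 (-3.57 to -1.0). March5 and Cpeb3, which lie between Btaf1 and Ide, were thus near the median of all genes. With TMM factors March5 stood at 0.09 and Cpeb3 at 0.13, whereas Fgfbp3 stood at -1.35 and Btaf1 at -0.47.

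**Figure D4:**
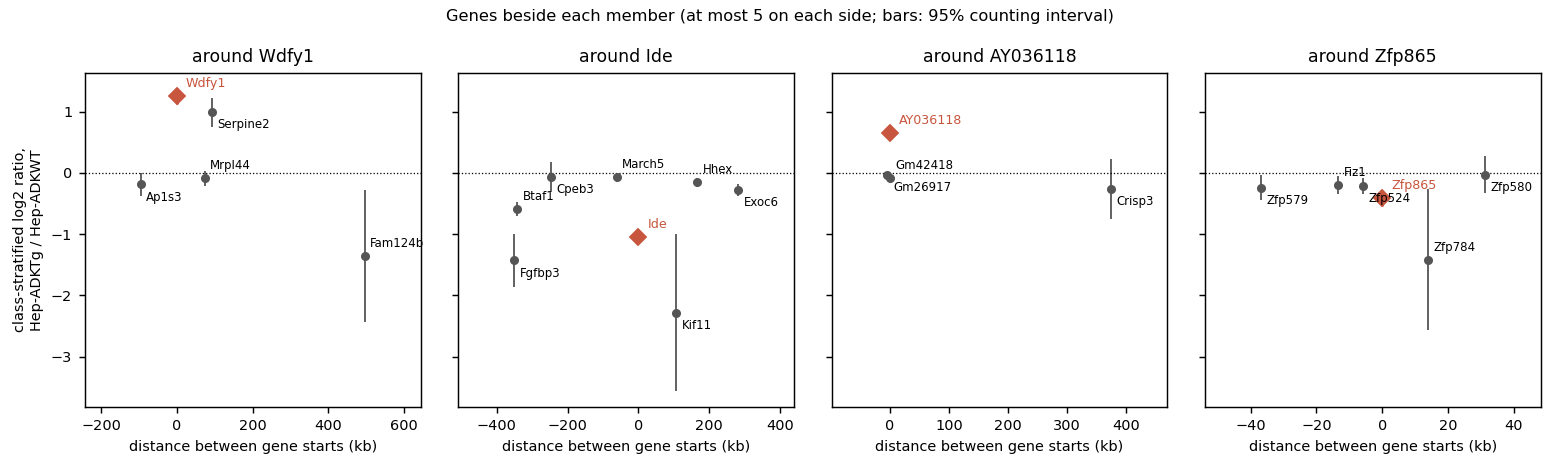
Class-stratified log2 ratio (y axis) of the tested genes among the 5 on either side of Wdfy1, Ide, AY036118 and Zfp865. The x axis is the distance in kb between gene starts, here the lowest coordinate of each gene on either strand. Red diamonds are the genes described here and bars 95% counting intervals. Fgfbp3 and Btaf1 lie below 0 at the left end of the Ide panel, with Cpeb3 and March5 near 0 between them and Ide.

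Beside Wdfy1, 4 of 10 neighbours were tested. Serpine2, encoding a secreted protease inhibitor, stood at 0.99 (0.75 to 1.23), with 1240 of its UMIs in hepatocyte-like cells of the Tg-labelled library, whereas Mrpl44, a mitochondrial ribosomal protein gene whose start overlaps that of Wdfy1 by 126 bases on the other strand, stood at -0.09 (-0.21 to 0.03), or at 0.05 with TMM factors. Ap1s3 stood at -0.19 (-0.38 to 0.00) and Fam124b, tested in 1 class, at -1.35 (-2.43 to -0.27). Around Gm17167 no neighbour had enough UMIs, the chemokine gene Ccl21b being at 0 UMIs in both libraries.

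A list of 10 genes that are known to differ in DNA or expression between stocks of C57BL/6 mice was read beside Ide because it holds Fgfbp3. Of them, 7 were tested, all 7 had a stratified ratio below 0 (6 of 7 with TMM or DESeq2 factors), and 2 were at least 2-fold lower, Fgfbp3 and Mmrn1, with a median log2 ratio of -0.39. The same figures over all 14130 genes tested in at least 1 class were 1.60% at least 2-fold lower and a median of -0.15. Because the list was read for holding Fgfbp3, its count of 2 cannot show an excess over that share. Mmrn1, which encodes a vascular matrix protein, was tested in vascular endothelial cells alone, at -4.76 (-5.23 to -4.30), and had 460 and 65 UMIs over the 12 classes. It was the leading gene of vascular endothelial cluster 34, which held 17 of the 63 and 32 of the 198 cells of that class. The part of this mix in the Mmrn1 ratio was not tested. Nnt, a mitochondrial transhydrogenase gene, had 426 and 352 UMIs in all barcodes, and Entpd4, Entpd4b and Crb1 had 0 in both. The strain of the mice is not in the labels, and its part in the Ide result was not tested.

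Gm17167 had 2426 UMIs in the WT-labelled library and 0 in the Tg-labelled one. In the WT-labelled library it was a gene of endothelial and mesenchymal cells. It stood at 258 CPM (247 to 271; 1836 UMIs) in sinusoidal endothelial cells, 208 (166 to 259; 82 UMIs) in vascular endothelial cells and 52.0 (42.1 to 63.5; 96 UMIs) in fibroblast or mesothelial cells. The other 9 classes together gave few UMIs: 7 in lymphocytes, 3 each in B cells and hepatocyte-like cells, 2 in plasma cells and 0 in the remaining 5 classes. Taking 3 counts as the limit that a count of 0 allows in a class, it was at least 510-fold lower in sinusoidal endothelial cells, at least 71.7-fold lower in vascular endothelial cells and at least 15.2-fold lower in fibroblast or mesothelial cells. At the WT-labelled levels, 1790 UMIs would have been counted in those 3 classes of the Tg-labelled library, so over the 3 together it was at least 597-fold lower.

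Among cells, 737 of 1628 sinusoidal endothelial cells of the WT-labelled library (45.3%) held a Gm17167 UMI, against 0 of 1484 in the Tg-labelled library, which allows a share of up to 0.202%. With cells of at least 1000 UMIs thinned to 1000, the shares were 21.2% (19.1 to 23.5, exact binomial) and 0%. Thinning left out 290 shallower sinusoidal endothelial cells of the WT-labelled library and 3 of the Tg-labelled one. In lymphocytes of the WT-labelled library, a class that should lack an endothelial transcript, the share was 0.153% of 4587 cells. Since the Tg-labelled library had 0 Gm17167 UMIs over all its barcodes, each part of it, every range of depth included, was bound to be at 0. Outside the named classes the WT-labelled library had 46 UMIs in the unnamed cluster 29 and 327 in barcodes that the filters left out.

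Much of the Gm17167 transcript cannot be told from other genes. Of its 4828 distinct words of 31 bases, 3171 (65.7%) occur on the same strand in another annotated gene, and 13 genes each share over 10% of them, led by Gm2163 (43.5%), Gm5859 (41.5%) and Gm10600 (38.7%). Only 3 of these 13 are in the count matrices: Gm3892 with 12 and 2 UMIs, and Gm12394 and Gm3893 with 0 in both. The whole last 1587 bases of the 5054-base transcript, which include the end that a 3' library reads, hold no word of their own. Shown are the last stretch with such words (bases 3348 to 3497) and the 3' end (bases 4905 to 5054), from GENCODE M21; capitals mark bases within words found in no other annotated gene on that strand.
Gm17167, bases 3348 to 3497: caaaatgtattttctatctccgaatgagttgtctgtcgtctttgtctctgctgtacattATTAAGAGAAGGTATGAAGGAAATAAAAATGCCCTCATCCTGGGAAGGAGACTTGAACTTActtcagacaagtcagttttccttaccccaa
Gm17167, 3' end: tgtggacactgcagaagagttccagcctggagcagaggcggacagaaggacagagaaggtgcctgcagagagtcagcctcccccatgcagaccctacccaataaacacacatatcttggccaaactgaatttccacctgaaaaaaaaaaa
The second stretch has no capitals, so reads from the 3' end match several genes of the annotation, and no source used here says how such reads were assigned. Which copy the 2426 UMIs came from is therefore uncertain, as is whether the Tg-labelled library has the same transcript counted under another identifier or not counted.

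AY036118 lies wholly inside the annotated ribosomal RNA gene CT010467.1 on the same strand and inside Gm42418 on the opposite strand. All 893 of its 31-base words (100%) occur in both. CT010467.1 is not in the count matrices. The last 120 of its 923 bases, from GENCODE M21, show this, since by the same marking none is a capital.
AY036118, 3' end: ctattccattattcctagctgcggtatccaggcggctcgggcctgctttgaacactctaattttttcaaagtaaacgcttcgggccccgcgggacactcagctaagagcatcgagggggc
AY036118 and Gm42418 are counted apart only by strand, and these values are uncertain for that reason.

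AY036118 was higher in the Tg-labelled library in 10 of 12 classes, with 9 intervals above 0. In B cells it stood at 310 CPM (299 to 321) in the WT-labelled and 597 (576 to 618) in the Tg-labelled library, and in sinusoidal endothelial cells at 149 (140 to 158) and 308 (294 to 322). Neutrophils had the largest difference, 191 (166 to 219) against 671 (603 to 745). Hepatocyte-like cells went the other way, 219 (207 to 231) against 159 (155 to 163), and plasma cells did not differ beyond counting error, 104 (98.0 to 111) against 97.7 (81.0 to 117). The class log2 ratios thus ran from -0.46 to 1.81, and 10 of the 12 intervals left out the stratified value of 0.65 (0.62 to 0.68). The SD over classes was 0.61, against 0.10 from counting.

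The level of AY036118 moved strongly with the depth of a cell. Over all kept cells of 500 or more but under 1000 UMIs it was 914 CPM in the WT-labelled and 2615 in the Tg-labelled library, and over cells of 5000 or more UMIs it was 214 and 130. These values pool classes in different shares: hepatocyte-like cells were 200 of 5967 and 1118 of 3583 cells of 5000 or more UMIs. In that range the log2 ratio was 0.45 (0.30 to 0.60) in B cells, 0.54 (0.46 to 0.61) in lymphocytes and 1.03 (0.85 to 1.21) in sinusoidal endothelial cells. It was 0.01 (-0.14 to 0.16) in monocytes or macrophages and -0.08 (-0.36 to 0.20) in plasma cells. The hepatocyte-like class mixes shallow and deep cells in different shares: below 5000 UMIs AY036118 was higher in the Tg-labelled library in each range of depth (log2 ratios of 1.28, 1.32 and 0.93), and at 5000 or more UMIs it was lower, at -1.36 (200 and 1118 cells). In the single clusters with at least 50 cells of each library it was higher in 15 of 16, hepatocyte cluster 0 included, at 440 against 1039 CPM. It was also high in the unnamed cluster 1, a group of shallow cells almost all in the Tg-labelled library (108 and 2630 cells), at 793 and 2507 CPM. The part of depth in the class differences was not tested beyond these values.

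Gm42418, the much more abundant transcript of the opposite strand, did not differ in the same way: its stratified log2 ratio was -0.09 (-0.09 to -0.08), from -1.42 in hepatocyte-like cells to 0.91 in neutrophils, and it was 0.04 with TMM factors. The ratio of AY036118 to Gm42418, looked at after these values were seen, was higher in the Tg-labelled library in 12 of 12 classes, with every interval above 0. It went from 25.8 to 44.9 AY036118 UMIs per 1000 Gm42418 UMIs in B cells, from 24.3 to 47.4 in hepatocyte-like cells and from 8.81 to 16.8 in sinusoidal endothelial cells. The fold ran from 1.25 (1.12 to 1.40) in plasmacytoid dendritic cells to 1.97 (1.58 to 2.46) in vascular endothelial cells, with a log2 SD of 0.23 over classes. Set against its antisense partner, AY036118 was therefore higher in hepatocyte-like cells too, at 1.95-fold (1.83 to 2.06).

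**Figure D5:**
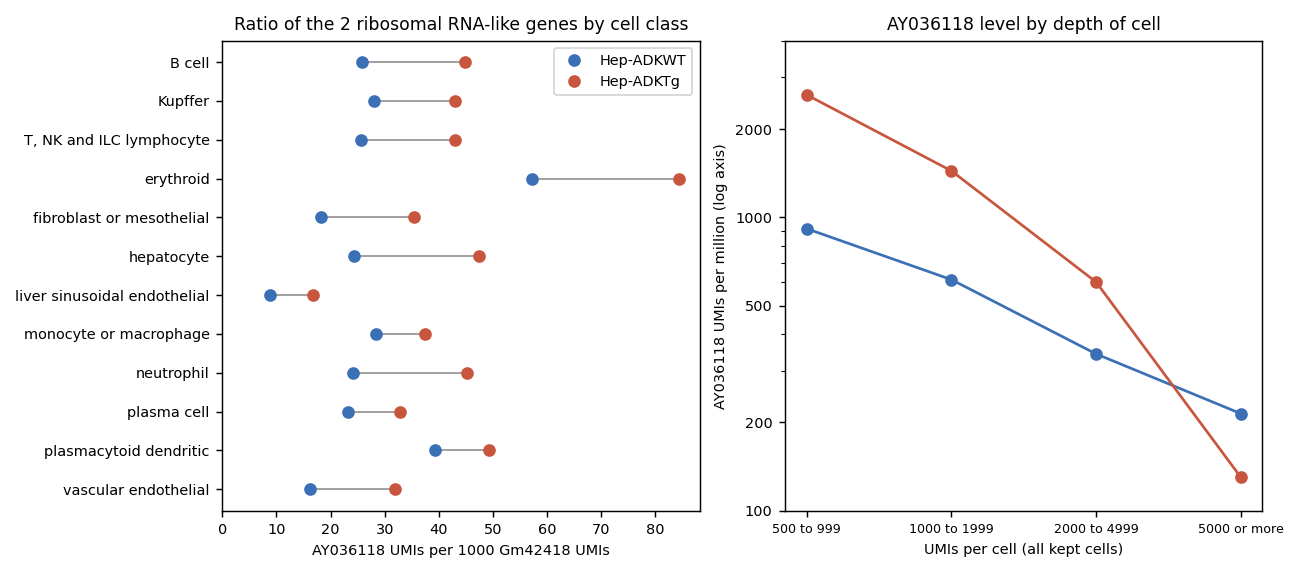
Left, AY036118 UMIs per 1000 Gm42418 UMIs (x axis) in 12 cell classes (y axis) of the WT-labelled (blue) and Tg-labelled (red) library; right, AY036118 CPM (log y axis) over all kept cells in 4 ranges of UMIs per cell (x axis). The red point lies to the right in all 12 classes. With all classes pooled, the order of the libraries turns over at 5000 or more UMIs per cell, 214 against 130. Of those cells, 200 and 1118 were hepatocyte-like.

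Other ribosomal RNA-like transcripts stood closer to 0 than AY036118. Of a list of 9, 5 are in the matrices and 4 were tested, with 1 above 0 (Rmrp, the RNA of an RNA-processing ribonuclease, at 0.13, -0.42 to 0.67), 3 below and none past 2-fold; with TMM or DESeq2 factors 3 lay above 0 and 1 below. Gm26917 stood at -0.04 (-0.09 to 0.01) and Lars2, the mitochondrial leucyl-tRNA synthetase gene, at -0.42 (-0.45 to -0.40).

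Zfp865 was lower in 7 of 8 classes, and only the B cells and the lymphocytes had intervals below 0. In B cells it stood at 29.4 CPM (26.1 to 33.0) in the WT-labelled and 13.6 (10.6 to 17.2) in the Tg-labelled library, a log2 ratio of -1.11 (-1.51 to -0.73). In lymphocytes it stood at 27.8 (25.9 to 29.8) and 20.3 (17.8 to 23.0), and in hepatocyte-like cells at 6.91 (5.00 to 9.31) and 8.08 (7.20 to 9.04). The intervals of the first 2 pairs did not overlap and those of the third did. In single clusters with at least 50 cells of each library, Zfp865 was lower in 10 of 12 and higher in 2. The log2 ratios ran from -1.09 in B cell cluster 5 to 0.83 in the deep hepatocyte cluster 9. Of the cluster intervals, 1 lay above 0 and 2 below. The stratified level was 1.32-fold lower (1.21 to 1.45), a log2 ratio of -0.40, and without the B cells it was -0.29. With TMM or DESeq2 factors the stratified log2 ratio was -0.28. Monocytes or macrophages and plasmacytoid dendritic cells, both counted as lower, stood at -0.08, nearer 0 than the median gene (-0.13). The SD over classes was 0.42, against 0.27 from counting. All 5 tested neighbours of Zfp865 lay below 0 (4 of 5 with TMM or DESeq2 factors). Most genes did too: over the 6226 genes, 17.6% lay above 0 and the median was -0.13. Among the neighbours, the zinc finger genes Fiz1 and Zfp524 stood at -0.20 (-0.34 to -0.05) and -0.21 (-0.34 to -0.08). Zfp865 shares 2330 bases with Zfp784 on the opposite strand, which had 152 and 83 UMIs, and overlaps Ccdc106 and 4632433K11Rik on its own strand, so reads of these genes may be mixed.

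The pathways of Wdfy1 and Ide were read from lists, none of whose members was past 2-fold in either direction. Of 16 genes of Toll-like receptor 3 and 4 signalling to TRIF, 3 had a stratified ratio above 0 and 13 below, with a median log2 ratio of -0.16, near the median of all tested genes; with TMM or DESeq2 factors 6 lay above 0 and 10 below. Tlr3, the endosomal receptor for double-stranded RNA, stood at 0.56 (0.39 to 0.72) and the interferon regulator Irf7 at 0.41 (0.31 to 0.50), whereas the adaptor Ticam1 stood at -0.17 (-0.39 to 0.04) and Irf3 at -0.22 (-0.30 to -0.13). Of 15 FYVE and phosphatidylinositol 3-phosphate genes, 4 lay above and 11 below 0, with a median of -0.08, and with those factors 12 lay above and 3 below. The relatives Wdfy2, Wdfy3 and Wdfy4 stood at -0.22, 0.09 and 0.12. Of 11 genes of insulin binding, signalling and clearance and of proteases like Ide, 4 lay above and 7 below 0, with a median of -0.18, against 6 above and 5 below with those factors. The insulin receptor Insr stood at 0.13 (0.04 to 0.21), Ceacam1, which promotes insulin uptake by hepatocytes, at 0.33 (0.23 to 0.43), and the related protease Pitrm1 at -0.29 (-0.45 to -0.14).

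The genes whose class ratios were most like those of each member were found by the root mean square difference of log2 ratios over the classes where the member was tested. For Ide they were Gm47283 (0.38 over 10 classes), the mitochondrial gene mt-Nd3 (0.42) and Atxn2l (0.51). For Wdfy1 the nearest was Hsd11b1 at 0.78 over 9 classes, against its own SD over classes of 0.61. For AY036118 they were Crot, Hspd1 and Asl (0.32 to 0.34 over 12 classes), and for Zfp865 Mex3c, Ddx17 and Dcaf12 (0.22 to 0.25 over 8 classes). Gm17167 had too few classes for this measure.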

How the data were processed

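Both 10x Genomics Chromium v3 libraries were analysed, 1 per genotype. The deposited matrices hold raw UMI counts per gene and barcode that the authors made with Cell Ranger. The submitters' processing notes list Cell Ranger 6.1.2, R 4.1.0, Seurat 4.0.2 and the build GRCm38 (mm10), while the file headers name an earlier Cell Ranger version. The members and gene lists were chosen with earlier results of these data known. Cells with at least 500 UMIs, 200 genes, at most 20% mitochondrial UMIs and a Scrublet score of at most 0.2 were kept; the score removed 483 and 408 cells, since the automatic threshold marked 0 and 1. Cells were clustered (2000 variable genes without the members, 30 components, 15 neighbours, Leiden resolution 1.0; scanpy 1.11.5, leidenalg 0.10.2) and classes named from markers. Counts were summed per class and library. Intervals are exact Poisson, exact conditional binomial or, for stratified ratios, Greenland-Robins, at 95%. The stratified ratio was tested on simulated data. Size factors came from edgeR 4.0.16 (TMM) and DESeq2 1.42.0 as alternatives. Hepatocyte RNA in other classes was estimated from 29 hepatocyte genes. Genes named are the members, the lists, the 5 neighbours on each side, the 3 most alike and the 5 furthest past 2-fold in every class.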

Additional observations from a re-analysis of the deposited data

Results flagged for a closer look

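AY036118 had opposite directions in different cell classes of the same comparison: the log2 ratio of the Tg-labelled over the WT-labelled library was 1.81 in neutrophils and -0.463 in hepatocyte-like cells, and neither counting interval reached 0. The direction in hepatocyte-like cells moved with depth. Their log2 ratio was 1.28, 1.32 and 0.93 in the ranges of depth below 5000 UMIs and -1.36 at 5000 or more. Of hepatocyte-like cells thinned to 1000 UMIs, 33.5% in the WT-labelled and 43.7% in the Tg-labelled library held an AY036118 UMI. With 1 library per genotype the difference between classes was not tested against replicates.

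Wdfy1 was also higher in barcodes that entered no comparison, those left out by the filters and not dominated by haemoglobin, where its log2 ratio was 0.93 (0.63 to 1.24).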

How the results depend on the processing

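Each stratified ratio kept its direction under every alternative run, and the SD over classes stayed within 1.5 times its value in the 88 alternatives computed for 4 genes. For Wdfy1 the log2 ratio was 1.38 with TMM or DESeq2 size factors, 1.0 after thinning to 1000 UMIs, 1.42 without the lymphocytes and 1.61 over single clusters in place of classes, a choice made after seeing the data. For Ide it was -0.887 with either set of size factors and -1.14 with the hepatocyte profile subtracted. For AY036118 it was 0.733 at 10% mitochondrial UMIs, 0.693 with doublets kept, 0.708 and 0.832 at resolutions 0.5 and 2.0, 0.725 with the members among the variable genes, 0.803 as a mean over cells, 0.803 with TMM and 0.809 with DESeq2 factors, 0.696 with class totals without shared genes and over single clusters, 0.747 with the hepatocyte profile subtracted and 0.893 after thinning. Leaving out 1 class gave 0.586 (B cells), 0.538 (lymphocytes), 0.801 (hepatocyte-like) and 0.613 (sinusoidal endothelial). Zfp865 over single clusters was -0.261.

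The bound for Gm17167 (log2 -9.22) became -8.77 with doublets kept, -9.35 at resolution 2.0, -9.40 with the members among the variable genes, -9.08 as a mean over cells, -9.15 with either set of size factors, -9.09 with the hepatocyte profile subtracted, -7.25 after thinning, -8.43 over single clusters, and -6.44 or -9.04 without the sinusoidal or the vascular endothelial cells.

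The 36 genes at least 2-fold higher, and the 7 higher in every class, became 82 and 16 with at least 10 UMIs per class, 14 and 4 with at least 200, 83 and 20 with TMM or DESeq2 factors, and 16 and 4 with the hepatocyte profile subtracted. The 4 genes lower, and the 1 lower in every class, became 12 and 4 with at least 10 UMIs, 0 and 0 with either set of factors, and 9 lower with the hepatocyte profile subtracted. The cause was not tested. No paired analysis was possible because each genotype has 1 library.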

Other observations

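In haemoglobin-dominated barcodes (over 50% haemoglobin UMIs; 1717 and 230 barcodes), with CPM taken over the other UMIs, AY036118 stood at 5711 CPM in the WT-labelled and 4467 in the Tg-labelled library, a log2 ratio of -0.35 (-0.47 to -0.25). Ide had 45 and 7 UMIs there, 58.3 and 39.3 CPM, and Wdfy1 had 5 and 3 UMIs, too few to place.

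In the unnamed cluster 24, which had 176 and 115 deep cells, Wdfy1 went from 12.8 to 24.5 CPM and Ide from 79.1 to 39.8, log2 ratios of 0.93 (0.27 to 1.60) and -0.99 (-1.40 to -0.60).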
